A study of Arabidopsis thaliana with 6 samples.

Results

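The genes described are 6 parts of the HSP70 chaperone system of Arabidopsis thaliana: the cytosolic HSP70 genes AT3G09440 and Hsp70-2, the FKBP co-chaperone AT5G48570 (ROF2 in RefSeq), Hop3, and the DnaJ homologues AT2G20560 and AT4G28480. They were taken by name, with earlier results of these data known. Values of all probe sets set beside theirs therefore describe the 6 and are no test of them. Each of the 6 has 1 probe set of its own among the 13356 genes that the platform annotation pairs with a probe set of that gene alone. All 6 lay above the floor of 13.7 (the 25th percentile of all signals, to which lower values were raised) on all 6 arrays.

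The series asks how the respiratory burst takes part in thermotolerance. Seedlings of ecotype Col-0 were floated on distilled water at 20, 30 or 40 °C and profiled on Affymetrix ATH1 arrays, 1 array for each temperature in wild type (stock N1092) and in the line AtrbohB, which carries a dspm insertion into At1g09090. Each sample pooled 90 plants, so no group has a replicate array, and neither the age of the seedlings nor the time at each temperature is given. The mutant is represented by 1 insertion line, and the title of its 40 °C array carries the word repeat. No probe set is listed for the disrupted gene alone, so its level was not analysed here.

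Members of the HSP70 family hold unfolded stretches of other proteins and release them in a cycle driven by ATP. DnaJ proteins, also called J-proteins or HSP40, bring clients to HSP70 and stimulate its ATPase, and HOP proteins bridge HSP70 and HSP90 through tetratricopeptide repeats. FKBP proteins are peptidyl-prolyl isomerases, and those of the larger kind act as co-chaperones of HSP90. In plants, as in other eukaryotes, many genes of this system are switched on by heat shock factors when proteins unfold.

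Median signals of the 6 arrays lay between 38.5 and 44.0. The labelled seedling material should hold shoot and root: the leaf genes LHCB4.2 and RCA had signals of 2123 to 3581 and 2749 to 3884, and the root genes PYK10, EXPA7 and EXPA18 had 789.9 to 2684, 23.7 to 51.8 and 27.5 to 38.0, all above the floor on 6 of 6 arrays. So were 14871 of the 22746 probe sets used, and EXPA18 lay below the median signal of every array. Of the root genes, only PYK10 stood well above the array medians. RBCS1A and LHCB1.1 have no probe set listed for that gene alone. In whole seedlings, fewer cells of a type and less RNA per cell cannot be told apart.

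At 30 against 20 °C, all 6 genes rose, and at 40 against 20 °C 5 of them were still raised. The co-chaperones AT5G48570 and Hop3 changed by far more than the HSP70 and DnaJ genes, 52.1-fold and 30.5-fold at 30 °C. Between 30 and 40 °C the group split: Hsp70-2, AT5G48570, Hop3 and AT4G28480 fell, AT2G20560 rose, and AT3G09440 did not pass the test.

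The counts are from limma's test, with temperature and genotype as additive terms and Benjamini-Hochberg adjustment over 18227 probe sets, at an adjusted p under 0.05. For 30 against 20 °C the same test called 35.6% of all probe sets, 14.9% as higher and 20.7% as lower. For 40 against 20 °C it called 28.1%, with 13.5% higher and 14.7% lower. At 40 against 30 °C it called 42.7%, with 24.9% higher and 17.8% lower. The median log2 change of the 6 genes was 1.90 at 30 against 20 °C, 2.06 at 40 against 20 °C and -0.56 at 40 against 30 °C, beside medians of -0.07, 0.08 and 0.15 over all probe sets. Each temperature effect compares 2 arrays with 2. The 2 residual degrees of freedom hold array noise together with any genotype by temperature difference. For the spread, limma joins them with a variance prior of 6.08 degrees of freedom drawn from all probe sets tested.

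**Figure D1:**
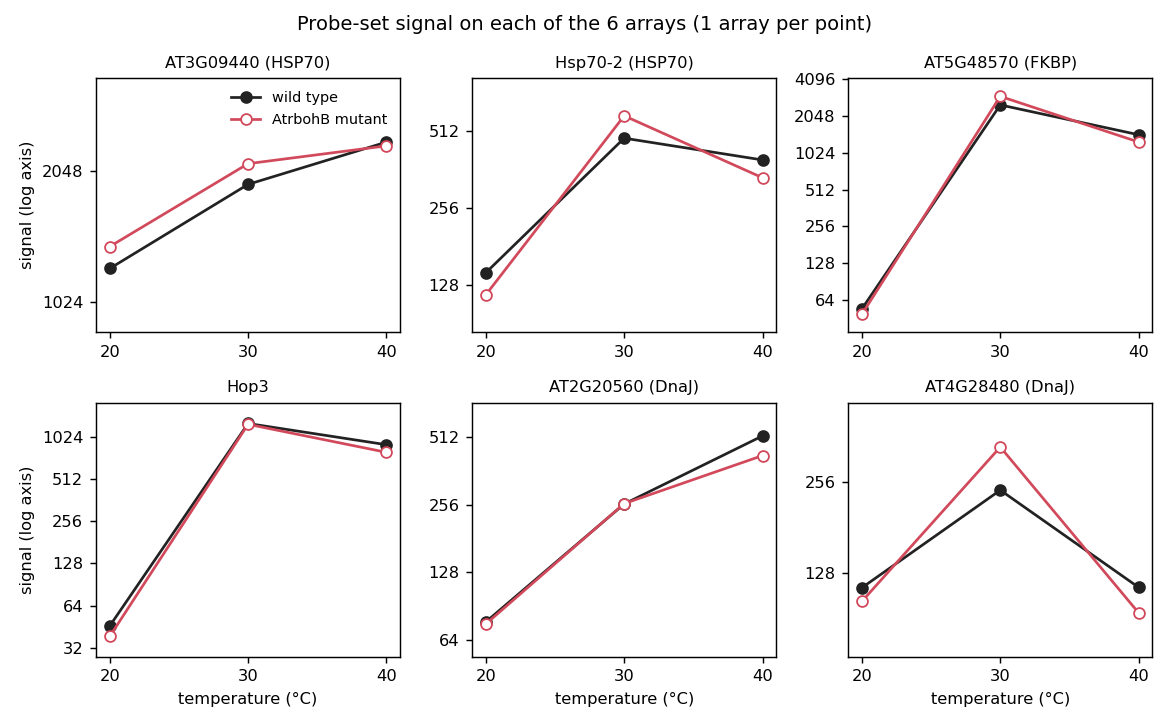
Signal of the 6 probe sets (log axis, scaled per panel) against temperature in °C, with 1 array per point, wild type as filled black circles and the AtrbohB mutant as open red circles. Hsp70-2, AT5G48570, Hop3 and AT4G28480 peak at 30 °C in both genotypes, while AT3G09440 and AT2G20560 are highest at 40 °C.

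Among the HSP70 genes, AT3G09440 was bright from the start. In order of temperature, its wild-type signals were 1221, 1905 and 2382, and its mutant signals were 1371, 2125 and 2335. The arrays of the 3 temperatures did not overlap, and within each genotype the order followed temperature. The rise was 0.64 ± 0.11 on the log2 scale at 30 against 20 °C (SE, 2 arrays against 2, limma adjusted p = 0.00249) and 0.87 ± 0.11 at 40 against 20 °C (limma adjusted p = 0.000778), or 1.55-fold and 1.82-fold. The step from 30 to 40 °C, 0.23 ± 0.11, was not called (limma adjusted p = 0.125). This was the smallest rise of the 6 at 30 °C.

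Hsp70-2 (AT5G02490) had wild-type signals of 142.7, 479.0 and 393.7 at 20, 30 and 40 °C, and mutant signals of 117.0, 585.7 and 335.4. Both 30 °C arrays lay above both 40 °C arrays, and those above both 20 °C arrays. It rose 4.10-fold at 30 °C (2.04 ± 0.15, limma adjusted p = 3.25e-05) and 2.81-fold at 40 °C (1.49 ± 0.15, limma adjusted p = 0.000224), and fell from 30 to 40 °C (-0.54 ± 0.15, limma adjusted p = 0.0192). The fall was not called without the floor and the filter on low values (limma adjusted p = 0.102) or in limma without the trend (limma adjusted p = 0.0633). RefSeq places HSC70-1, another cytosolic HSP70 gene, directly beside Hsp70-2; HSC70-1 has no probe set listed for it alone, and whether related HSP70 transcripts bind the probes of AT3G09440 and Hsp70-2 was not tested.

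The co-chaperone AT5G48570 went from wild-type signals of 54.7 at 20 °C to 2500 at 30 °C and 1430 at 40 °C. In the mutant the signals were 49.4, 2935 and 1247. The arrays fell into 3 separate levels by temperature, with 30 °C on top. The rise at 30 °C was 5.70 ± 0.12 (limma adjusted p = 1.21e-07), rank 3 from the top among the 14871 probe sets above the floor on all 6 arrays. At 40 against 20 °C it was 4.68 ± 0.12, or 25.7-fold (limma adjusted p = 2.02e-07, rank 19). From 30 to 40 °C the gene fell by 1.02 ± 0.12 (limma adjusted p = 0.000368).

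Hop3 (AT4G12400) had wild-type signals of 45.7, 1287 and 906.7 and mutant signals of 38.5, 1269 and 799.8 at 20, 30 and 40 °C. The order of the temperatures was that of AT5G48570, again with no overlap. Hop3 rose by 4.93 ± 0.10 at 30 °C (limma adjusted p = 1.09e-07, rank 10 of 14871) and by 4.34 ± 0.10 at 40 °C (20.3-fold, limma adjusted p = 1.13e-07, rank 27). Between 30 and 40 °C it fell by 0.59 ± 0.10 (limma adjusted p = 0.00261).

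The DnaJ homologues differed in their course. AT2G20560 had wild-type signals of 76.9, 257.4 and 517.0 and mutant signals of 75.3, 258.4 and 422.7. Each step up in temperature gave a higher signal in both genotypes: 1.76 ± 0.12 from 20 to 30 °C (3.39-fold, limma adjusted p = 2.21e-05) and 0.86 ± 0.12 from 30 to 40 °C (1.81-fold, limma adjusted p = 0.000729). At 40 against 20 °C the rise was 6.14-fold (2.62 ± 0.12, limma adjusted p = 3.68e-06). It was the only one of the 6 called higher at both steps, as were 0.604% of all probe sets; a rise at 30 °C followed by a fall at 40 °C was called for 4 of the 6 and for 10.3% of all.

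AT4G28480 had wild-type signals of 114.3, 241.2 and 114.6 and mutant signals of 103.0, 335.5 and 94.3. Both 30 °C arrays stood above the other 4, and the 20 and 40 °C arrays overlapped. It rose 2.62-fold at 30 °C (1.39 ± 0.18, limma adjusted p = 0.000664) and fell by 1.45 ± 0.18 from 30 to 40 °C (limma adjusted p = 0.000442). At 40 against 20 °C the difference was -0.06 ± 0.18 (limma adjusted p = 0.830).

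Single arrays were left out in turn. Each such fit has 1 residual degree of freedom and called fewer of all probe sets in every comparison of temperatures. A lost call, here or below, therefore need not rest on the array left out. All 6 fits with 1 array left out kept the rises of AT5G48570, Hop3 and AT2G20560 at both 30 and 40 °C, those of Hsp70-2 and AT4G28480 at 30 °C, and the further rise of AT2G20560 at 40 °C. For 40 against 20 °C, AT3G09440 and Hsp70-2 lost their calls with either 40 °C array left out. Their rises were 0.77 and 1.38 without the wild-type 40 °C array, and 0.96 and 1.61 without the mutant one. With all 6 arrays they were 0.87 and 1.49. For 30 against 20 °C, AT3G09440 lost its call when the wild-type 20 °C array was left out (adjusted p = 0.0759) and when the mutant 30 °C array was (0.0606). Between 30 and 40 °C, the falls of Hsp70-2 and Hop3 were lost with any one of 3 arrays left out: the wild-type 40 °C array (limma adjusted p = 0.142 and 0.0605), the mutant 30 °C array (0.195 and 0.0690) and the mutant 40 °C array (0.276 and 0.0749). When that last array was left out, the changes of AT5G48570 (-0.90) and AT4G28480 (-1.23) from 30 to 40 °C were not called either. The fall of Hsp70-2 was -0.27 in place of -0.54 when the mutant 30 °C array was left out.

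Scaling moved the levels between 30 and 40 °C. Centring each array on its median took the median change of all probe sets from 0.15 to 0.03, and the calls from 4538 higher and 3243 lower to 3214 higher and 3817 lower. For 40 against 20 °C it took 2456 higher and 2674 lower to 1737 and 2907. With centring, the changes from 30 to 40 °C were 0.09 for AT3G09440, -0.68 for Hsp70-2, -1.16 for AT5G48570, -0.72 for Hop3, 0.72 for AT2G20560 and -1.59 for AT4G28480, and the calls of the 6 genes were as before in all 3 comparisons of temperatures.

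The course of a gene over the 6 arrays was compared with that of the others through the root mean square difference of log2 profiles, each centred on its own mean. Of the 15 pairs among the 6 genes, AT5G48570 and Hop3 were closest, at 0.33, and AT3G09440 and AT5G48570 farthest apart, at 2.16. The DnaJ homologues differed by 1.19 and the HSP70 genes by 0.59. These values describe 6 arrays that all genes share.

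The same measure was taken against 10284 other probe sets with 1 listed gene. For Hop3, the closest was AT5G25450 (0.19), which was also near AT5G48570 (0.49), behind Hop3 itself and AT5G10695 (0.39). After AT5G48570, the next for Hop3 was AT1G21550 (0.42), at the floor on 2 arrays. For AT3G09440 the closest were AT2G32970 (0.06), AT5G57340 (0.08) and AT2G13940 (0.09), and for Hsp70-2 they were SRC2 (0.12), VPS2.1 (0.13) and AT1G01240 (0.18). The closest to AT2G20560 were AT3G07090 (0.12), AT1G26800 (0.17) and AT5G65300 (0.20). AT4G28480 was nearest to AT1G71950 (0.07), AT5G48110 (0.08, at the floor on 1 array) and AT1G53400 (0.09).

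Other genes of the chaperone system were gathered in 13 lists with 71 genes, of which 19 had a probe set of their own and 18 could be tested. None of the other cytosolic HSP70 genes (0 of 5), organelle HSP70 genes (0 of 7), HSP90 genes (0 of 7), HSP100 genes (0 of 5), larger FKBP genes (0 of 3), GrpE genes (0 of 3) or cytosolic type I DnaJ genes (0 of 2) was among them. Of the 18, limma called 8 higher and 0 lower at 30 against 20 °C, beside 14.9% and 20.7% of all probe sets. At 40 against 20 °C it called 6 higher and 1 lower, beside 13.5% and 14.7% of all. At 40 against 30 °C it called 1 higher and 8 lower, beside 24.9% and 17.8% of all. Their median log2 changes were 0.37, 0.18 and -0.45. Of the 24 calls, 7 were kept in all 6 fits with 1 array left out.

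The HOP family showed 1 rising relative beside Hop3. Hop2 had wild-type signals of 157.3, 506.7 and 263.0 and mutant signals of 189.2, 426.1 and 298.8. It rose by 1.43 ± 0.14 at 30 °C (limma adjusted p = 0.000131) and 0.70 ± 0.14 at 40 °C (limma adjusted p = 0.00743), and fell by 0.73 ± 0.14 in between (limma adjusted p = 0.00369). The 40 °C call was lost without the floor and filter (adjusted p = 0.0696, limma), and when the wild-type 20 °C array or either 40 °C array was left out. The fall was lost without the wild-type 30 °C array or either 40 °C array. Hop1, with signals from 70.1 to 99.4, had -0.28 ± 0.15 at 30 °C and 0.12 ± 0.15 at 40 °C and was not called.

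Of 11 genes in a list of p23, SGT1, CHIP, AHA1, HIP, FES1 and BAG co-chaperones, 4 were measured. Of these, 3 rose at 30 °C and fell again at 40 °C, a course called for 10.3% of all probe sets. SGT1A, a co-chaperone of HSP90, had wild-type signals of 180.2, 903.4 and 358.7 and mutant signals of 169.2, 1071 and 240.2. It rose by 2.49 ± 0.17 at 30 °C (limma adjusted p = 2.62e-05) and fell by 1.74 ± 0.17 towards 40 °C (limma adjusted p = 0.000128). Fes1A, a partner of cytosolic HSP70 of the family of nucleotide exchange factors, had wild-type signals of 272.9, 1033 and 439.9 and mutant signals of 214.7, 1056 and 358.3. Its changes were 2.11 ± 0.12 at 30 °C (limma adjusted p = 8.56e-06) and -1.40 ± 0.12 from 30 to 40 °C (limma adjusted p = 5.36e-05). AT3G12050 rose by 1.69 ± 0.10 at 30 °C and 1.03 ± 0.10 at 40 °C (limma adjusted p = 1.08e-05 and 0.000200); the 40 °C call was at the threshold without the wild-type 40 °C array (0.0501), and the change of -0.67 ± 0.10 from 30 to 40 °C was lost without the mutant 40 °C array (0.0558). AT4G02450 was flat at 30 °C (0.00 ± 0.11) and had 0.42 ± 0.11 at 40 °C (limma adjusted p = 0.0253), a call lost in each of the 6 fits with 1 array left out, and on centring (adjusted p = 0.0910). At 40 against 20 °C all 4 were called higher, beside 13.5% of all probe sets. But with all 6 arrays kept, SGT1A and AT4G02450 lost this call without the floor and filter (limma adjusted p = 0.116 and 0.0624). They also lost it in limma without the trend (adjusted p = 0.0548 and 0.0857). The rise of SGT1A (0.75 ± 0.17, limma adjusted p = 0.0149) was also lost in all 6 fits with 1 array left out, and was 0.42 without the wild-type 40 °C array. That of Fes1A (0.71 ± 0.12, limma adjusted p = 0.00314) was lost without either 40 °C array or the mutant at 20 °C.

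Among 7 further DnaJ genes of the kind of AT2G20560 and AT4G28480, all 7 were measured and 6 tested. At 30 °C, 2 of 6 were called higher, beside 14.9% of all probe sets: AT3G47940 (0.79 ± 0.18, limma adjusted p = 0.0106) and AT1G10350 (0.78 ± 0.17, limma adjusted p = 0.00754). In the same 6, limma called 0 at 40 against 20 °C, beside 28.1% of all probe sets. At an unadjusted p under 0.05 it was also 0, beside 7299 of all 18227 probe sets. These counts cover the 6 listed genes alone, some of which were at the floor on most arrays. AT3G47940 had wild-type signals of 43.7, 82.3 and 42.9 and mutant signals of 50.0, 79.7 and 43.7, highest on both 30 °C arrays, as for AT4G28480. Its rise was lost in all 6 fits with 1 array left out, and that of AT1G10350 in 4 of 6, those without either mutant array at 20 or 30 °C or either array at 40 °C. AT3G08910 had 0.48 ± 0.18 at 30 °C and 0.39 ± 0.18 at 40 °C and was not called (limma adjusted p = 0.0684 and 0.141), though 4 of 8 alternatives with all arrays called the 30 °C rise. AT1G59725 was above the floor on the 40 °C arrays alone, with 14.1 in wild type and 18.4 in the mutant.

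Of 5 genes for DnaJ proteins of the endoplasmic reticulum, 3 were measured. All 3 had values below 0 at 40 against 20 °C, and 1 was called. From 30 to 40 °C all 3 were called lower, beside 17.8% of all probe sets. The changes were -1.28 ± 0.14 for ATERDJ3B (limma adjusted p = 0.000214), -0.56 ± 0.13 for ATERDJ2A (0.00891) and -0.55 ± 0.17 for ATERDJ2B (0.0288). With 1 array left out, that of ATERDJ3B kept its call, while those of ATERDJ2A and ATERDJ2B lost theirs in some or all fits. ATERDJ3B rose at 30 °C (0.90 ± 0.14, limma adjusted p = 0.00161), from 177.9 to 341.5 in wild type and 153.2 to 278.9 in the mutant. The rise was lost when either 30 °C array was left out. Its 40 °C signals were 118.7 and 135.6, below both 20 °C arrays, and the change of -0.38 ± 0.14 against 20 °C was not called (limma adjusted p = 0.0809). ATERDJ2A fell at 40 against 20 °C (-0.79 ± 0.13, limma adjusted p = 0.00305), a call lost without either 40 °C array or the mutant at 20 °C, and ATERDJ2B had -0.29 ± 0.17 (limma adjusted p = 0.239). ATJ1, a mitochondrial DnaJ protein and the 1 measured gene of 10 in the list of plastid and mitochondrial DnaJ proteins, had 0.82 ± 0.24 at 40 °C (limma adjusted p = 0.0378), lost in all 6 fits with 1 array left out and 0.50 without the wild-type 20 °C array. In the HSP110 list, AT4G16660 had 0.51 ± 0.17 at 30 °C (limma adjusted p = 0.0452), also lost in all 6, and AT1G11660 had 0.15 ± 0.15. With all arrays kept, dropping the floor and filter also lost these calls of ATJ1 and AT4G16660 (limma adjusted p = 0.159 and 0.0575).

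**Figure D2:**
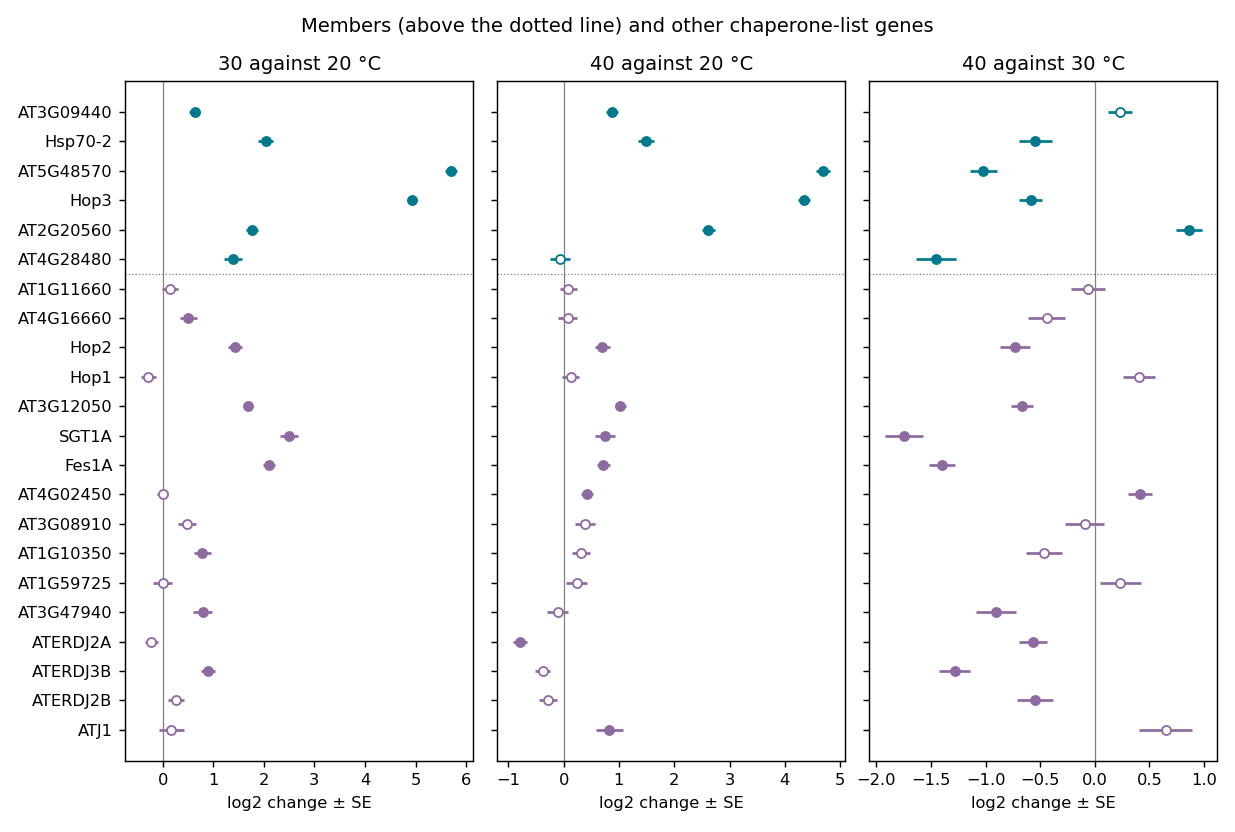
Log2 change with its SE from limma (2 arrays against 2) for the 6 genes, in teal above the dotted line, and for 16 named genes of the other chaperone lists, in purple, in the 3 comparisons of temperatures; filled points passed an adjusted p of 0.05 and the axes differ between panels. AT5G48570 and Hop3 lie between 4.34 and 5.70 at 30 and 40 against 20 °C, beyond all other genes drawn.

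Between the genotypes, averaged over the 3 temperatures, none of the 6 genes differed by the test. The log2 differences, mutant minus wild type, were 0.10 ± 0.09 for AT3G09440, -0.08 ± 0.12 for Hsp70-2, -0.04 ± 0.10 for AT5G48570, -0.15 ± 0.08 for Hop3, -0.11 ± 0.10 for AT2G20560 and 0.01 ± 0.15 for AT4G28480 (SE, 3 arrays against 3). limma called 0 of the 6, with adjusted p from 0.978 to 0.997, and 0% of all probe sets. At an unadjusted p under 0.05 there were 0 of the 6, 0 of the 18 other chaperone genes and 735 of all 18227 probe sets.

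The sign of the difference varied with temperature. At 40 °C the mutant signal was below the wild-type signal for 6 of 6 genes, by 0.03 (AT3G09440) to 0.29 (AT2G20560) on the log2 scale, against 47.3% of all probe sets, with 49.8% above. At 30 °C it was above for 5 of 6, against 40.6% of all above and 53.9% below, with 0.48 for AT4G28480, 0.29 for Hsp70-2, 0.23 for AT5G48570, 0.16 for AT3G09440 and 0.01 for AT2G20560, while Hop3 had -0.02. At 20 °C it was below for 5 of 6, against 44.4% of all below and 50.6% above, and AT3G09440 was above, by 0.17. No gene of the 6 was 2-fold apart between the genotypes at any temperature, and the share of all probe sets that were went from 0.625% at 20 °C and 0.642% at 30 °C to 1.55% at 40 °C. With 1 array on each side these differences have no test, and all 6 genes were read from the same arrays.

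The signs at 30 °C also depended on scaling. With quantile normalization 3 of 6 were above wild type, and AT3G09440 (-0.05) and AT5G48570 (-0.06) turned below; with median centring 6 of 6 were above. At 40 °C, 6 of 6 remained below under both.

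**Figure D3:**
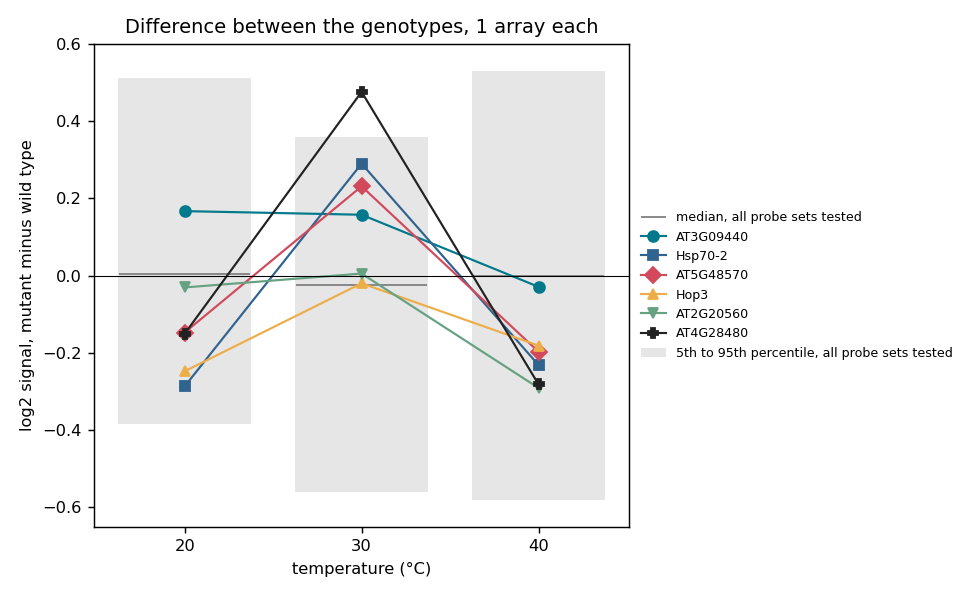
Log2 signal of the AtrbohB mutant minus wild type at 20, 30 and 40 °C for the 6 genes, 1 array on each side, with grey bars for the 5th to 95th percentile of all 18227 probe sets and a grey line for their median. At 40 °C all 6 points lie below 0 and within the grey bar, and at 30 °C only AT4G28480 (0.48) lies above the 95th percentile of 0.36; under quantile normalization 3 of the 6 lie below 0 at 30 °C.

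Taken as a change from 30 to 40 °C, the mutant went lower than wild type for 6 of 6 genes, against 44.2% of all probe sets. The count was also 6 with quantile normalization and log2(value + 16). Median centring moved all 6 values down by the same amount, so the count could not fall under it. The floors and filters leave the values of these 6 genes as they are. AT4G28480 kept 47.5% of its 30 °C signal at 40 °C in wild type and 28.1% in the mutant, and Hsp70-2 kept 82.2% and 57.3%. For AT5G48570 these shares were 57.2% and 42.5%, and for Hop3 70.5% and 63.0%. The genes with higher signals at 40 °C gained less in the mutant: AT2G20560 reached 200.9% of its 30 °C signal in wild type and 163.6% in the mutant, and AT3G09440 125.0% and 109.9%.

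On the log2 scale the change from 30 to 40 °C, mutant minus wild type, was -0.76 for AT4G28480, and 3.40% of all probe sets had a value as low or lower. For Hsp70-2 it was -0.52 (8.03% of all), for AT5G48570 -0.43 (11.3%), for AT2G20560 -0.30 (18.1%), for AT3G09440 -0.19 (26.0%) and for Hop3 -0.16 (28.2%). The median was -0.36, beside 0.05 over all probe sets. The sizes depended on scaling: with quantile normalization the value was -0.15 for AT5G48570, -0.05 for AT3G09440 and -0.03 for Hop3, and the median -0.22, while AT4G28480 (-0.76), Hsp70-2 (-0.47) and AT2G20560 (-0.28) moved little. The shares kept at 40 °C, above, are on the deposited scaling. Of the 18 other chaperone genes 7 were below 0, with a median of 0.09; SGT1A (-0.82) and Fes1A (-0.33) were below and Hop2 (0.43) above. The difference from wild type was not tested for any of them: each value rests on 4 single arrays, 1 of them the mutant 40 °C array with repeat in its title.

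From 20 to 30 °C the log2 change was larger on the mutant arrays for 5 of 6 genes, again untested, while it was lower there for 56.5% of all probe sets. AT5G48570 was 45.7-fold higher on the wild-type array and 59.4-fold on the mutant array, Hsp70-2 3.36-fold and 5.01-fold, and AT4G28480 2.11-fold and 3.26-fold. Hop3 had 28.2-fold and 33.0-fold, while AT2G20560 (3.35-fold and 3.43-fold) and AT3G09440 (1.56-fold and 1.55-fold) were close in both. With quantile normalization the log2 difference in this step, mutant minus wild type, went from 0.38 to 0.12 for AT5G48570, from 0.23 to 0.11 for Hop3 and from -0.01 to -0.22 for AT3G09440, and with median centring that of AT3G09440 turned to 0.14. Against 20 °C, the 40 °C signal of AT5G48570 was 26.1-fold in wild type and 25.2-fold in the mutant, and that of Hop3 19.8-fold and 20.8-fold. These comparisons share the 30 or the 20 °C arrays, so they are not independent of each other.

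**Figure D4:**
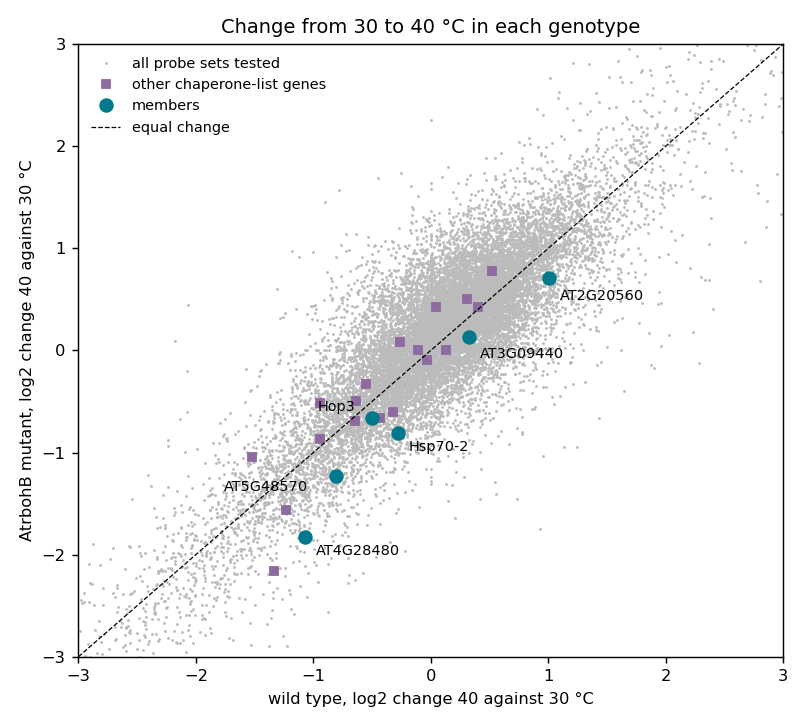
Log2 change from 30 to 40 °C in the AtrbohB mutant against that in wild type, 1 array per genotype and temperature, for the 6 genes (teal circles), the 18 tested genes of the other chaperone lists (purple squares) and all probe sets tested (grey), of which 223 lie outside the axes. All 6 teal circles lie under the dashed line of equal change, AT4G28480 farthest at -0.76, while the purple squares lie on both sides.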

How the data were processed

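The authors deposited 1 linear intensity value for each probe set and array, and the values show a mean of 100 on every array once 2% is trimmed at either end; the summary method is not given in the sources used here. From 22810 probe sets, 64 controls were left out. Gene names come from the platform annotation (probe sets with 1 listed gene), brought up to date with RefSeq gene symbols (assembly TAIR10.1).

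Values were raised to the floor, put on the log2 scale and, where above the floor on at least 2 arrays, fitted with limma 3.58.1 in R 4.3.3 (genotype and temperature additive, trended variance prior of 6.08 degrees of freedom, two-sided tests, Benjamini-Hochberg adjustment over 18227 probe sets). The code was tested on simulated arrays without any genotype by temperature difference, which is no test of the error rate in these data. Figures used matplotlib 3.10.9. The number of arrays limits the precision.

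The 6 genes and the chaperone lists were chosen with earlier results of these data known. All 6 are described, with up to 4 genes of each list, those with the largest change at 40 against 20 °C, and the 3 nearest profiles of each gene. Other settings tried were quantile normalization, median centring, a higher floor of 27.9 (40th percentile), dropping both floor and filter, log2(value + 16), a filter on all 6 arrays, a limma prior that was robust or had no trend, and leaving out each array. No member has a second probe set to try.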

Additional observations from a re-analysis of the deposited data

Results flagged for a closer look

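Some differences between the genotypes had opposite signs at 2 temperatures, each at least 0.2 on the log2 scale; with 1 array per group none of these was tested. For Hsp70-2, mutant minus wild type ran from -0.29 at 20 °C over 0.29 at 30 °C to -0.23 at 40 °C, which is a shift of 0.58 from 20 to 30 °C and of -0.52 from 30 to 40 °C. For AT4G28480 it went from 0.48 at 30 °C to -0.28 at 40 °C, a shift of -0.76. SGT1A went from 0.25 to -0.58 between these temperatures, a shift of -0.82. Hop2 went the other way from 20 to 30 °C, from 0.27 to -0.25 (-0.52), and AT1G10350 from -0.26 to 0.27 (0.53). ATJ1, whose signals lay between 19.5 and 41.5, had 0.21 at 20 °C, -0.57 at 30 °C and -0.31 at 40 °C, shifts of -0.78 and -0.52 against 20 °C. Its change from 20 to 30 °C was 0.57 for wild-type and -0.22 for mutant arrays, the same difference of -0.78.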

How the results depend on the processing

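No alternative reversed a call of the 6 genes. Of 192 values of the 6 genes under the alternatives that kept all arrays, 190 stayed on their side of the threshold and 2 lost their call; of 144 with 1 array left out, 130 stayed and 14 lost it, all named above. For the other chaperone genes these numbers were 521 of 548 (10 lost, 17 gained) and 364 of 432 (68 lost). With 1 array left out, which leaves 1 residual degree of freedom, the counts of called probe sets ranged from 822 to 2800 at 40 against 20 °C, from 2089 to 4340 at 30 against 20 °C and from 2783 to 6653 at 40 against 30 °C. The called members among the 6 ranged from 3 to 5, 5 to 6 and 1 to 5. Without the floor and the filter, 2675 probe sets were called at 40 against 20 °C; the cause was not tested. Between the genotypes, log2(value + 16) and the filter on all 6 arrays each gave 1 call in place of 0, none of the 6. The difference between the genotypes in the change from 30 to 40 °C needs all 4 arrays of these temperatures, so it has no value with one of them left out. Genotype is a term of the fit, so the temperatures were already compared within genotypes. No further pairing was possible because each group has 1 array and the labels give no replicate numbers. Signals under the floor of 13.7 have no order, which touches none of the 6 genes.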

Other observations

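The chaperonin genes with Cpn60 in their symbol, picked after their values were seen, took different courses. Chaperonins are barrel-shaped folding machines, and those of the Cpn60 type act in plastids and mitochondria. Cpn60beta2 had wild-type signals of 423.3, 870.8 and 1189 at 20, 30 and 40 °C and mutant signals of 416.4, 877.6 and 1165, and rose at 30 °C (1.06 ± 0.09, limma adjusted p = 8.23e-05) and at 40 °C (1.49 ± 0.09, limma adjusted p = 2.05e-05). Cpn60beta4 fell at 30 against 20 °C (-0.67 ± 0.18, limma adjusted p = 0.0198) and rose from 30 to 40 °C (0.91, limma adjusted p = 0.00418), with 0.24 ± 0.18 at 40 against 20 °C (limma adjusted p = 0.347). Cpn60beta3 was not called at 30 °C (-0.26 ± 0.16, limma adjusted p = 0.231) or at 40 °C (0.09 ± 0.16, limma adjusted p = 0.718).

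Of the 12 protein-coding genes next to the 6 genes in the RefSeq gene order, a look added after the data were seen, 2 were tested. AT2G20550, beside AT2G20560, rose at 40 against 20 °C (1.32, limma adjusted p = 0.00152) and had 0.16 at 30 °C (limma adjusted p = 0.564). AT5G02480, beside Hsp70-2, fell at 30 °C (-1.47, limma adjusted p = 2.01e-05) and at 40 °C (-1.22, limma adjusted p = 6.85e-05).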
